A study of Arabidopsis thaliana with 67 samples.

Results

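The levels of 10 heat response genes of Arabidopsis thaliana were followed, out of 29696 genes with a row in the deposited table, through 67 RNA libraries. They are the chaperone genes HSP70 (AT3G12580), HSP101 (AT1G74310) and HSP90.1 (AT5G52640), the transcription factor genes HSFA2 (AT2G26150) and DREB2A (AT5G05410), and 5 small heat shock protein genes: HSP17.4 (AT3G46230), HSP18.2 (AT5G59720), HSP21 (AT4G27670), ATHSP22.0 (AT4G10250) and HSP17.6II (AT5G12020). They were taken by their identifiers. The family was chosen by measured values of HSP70 in pollen, whose difference between ago59 and wild-type plants was unlike in sperm and in vegetative nuclei, so the ago59 comparisons in pollen are given below as a description, without a test. All plants were of ecotype Col-0, and the genotypes were the wild type, ago5, ago9 and ago59, the last read here as the double mutant of both genes. The labels give no allele. Both genes code for ARGONAUTE proteins, partners of small RNAs, whose function in the shoot apical meristem is the subject of the series. Seedling nuclei came from shoot apices of plants of 7 d, grown with 16 h of light and 8 h of dark, and each library was made by Smart-seq3 from 100 sorted nuclei. Nuclei with an mCherry reporter formed the stem-cell group, with 5 wild-type, 8 ago5, 7 ago9 and 7 ago59 libraries. Nuclei named only for the DNA stain DAPI formed the non-stem group, with 3, 3, 4 and 3 libraries. Sperm nuclei (3 libraries of each genotype) and vegetative nuclei (4, 3, 4 and 4 libraries) came from pollen of plants of 35 d, and 2 ng of RNA per library entered Smart-seq2. The promoter behind the reporter is not stated, no heat treatment is described, and the RNA is nuclear, so none of the values is a level of the whole cell. Seedling and pollen libraries were made by different protocols and no test compares them.

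Heat shock proteins are chaperones that hold, refold or unfold other proteins. HSP70 and HSP90 proteins use ATP to fold client proteins, HSP101 pulls proteins out of aggregates, and small heat shock proteins bind unfolding proteins and keep them soluble. In plants, heat releases heat shock factors, which bind repeats of the heat shock element, alternating GAA and TTC units, and switch these genes on. HSFA2 is such a factor that prolongs the response. DREB2A is a transcription factor of drought and heat responses that acts upstream of another heat shock factor. Pollen carries a pair of sperm cells inside a vegetative cell, which grows the pollen tube.

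The stretches before 4 of the genes are shown because they carry the elements through which the family is known to be switched on, or, for HSP70, because the results turn on that gene. Each is the 250 bases before the RefSeq gene start, read from assembly TAIR10.1 along the gene's strand. Capitals mark every match to 2 neighbouring units (GAANNTTC or TTCNNGAA) or 3 units (GAANNTTCNNGAA or TTCNNGAANNTTC), where overlapping matches run together.
HSP17.4, chr3:16984868-16985117, minus strand: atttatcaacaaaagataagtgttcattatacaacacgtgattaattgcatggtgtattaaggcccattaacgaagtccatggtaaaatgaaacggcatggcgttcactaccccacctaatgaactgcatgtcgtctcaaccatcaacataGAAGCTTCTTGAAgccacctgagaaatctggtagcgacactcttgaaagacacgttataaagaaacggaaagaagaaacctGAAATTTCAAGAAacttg
HSFA2, chr2:11135374-11135623, plus strand: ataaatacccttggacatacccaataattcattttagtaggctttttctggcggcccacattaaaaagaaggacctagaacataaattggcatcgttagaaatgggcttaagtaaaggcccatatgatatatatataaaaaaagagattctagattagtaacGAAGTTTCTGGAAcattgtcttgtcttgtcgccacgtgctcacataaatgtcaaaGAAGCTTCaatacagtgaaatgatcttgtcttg
DREB2A, chr5:1601955-1602204, plus strand: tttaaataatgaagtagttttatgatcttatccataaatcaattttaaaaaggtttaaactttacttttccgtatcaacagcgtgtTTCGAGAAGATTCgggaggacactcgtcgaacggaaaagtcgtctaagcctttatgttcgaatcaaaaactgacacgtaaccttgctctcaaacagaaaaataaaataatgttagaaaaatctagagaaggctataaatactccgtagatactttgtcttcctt
HSP70, chr3:3993887-3994136, minus strand: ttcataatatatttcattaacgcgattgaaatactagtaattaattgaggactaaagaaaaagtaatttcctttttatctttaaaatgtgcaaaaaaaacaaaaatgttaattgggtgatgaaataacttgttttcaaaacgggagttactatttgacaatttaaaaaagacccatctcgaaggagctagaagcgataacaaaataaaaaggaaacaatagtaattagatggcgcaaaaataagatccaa
HSP17.4 held 4 matches to 2 units and 2 matches to 3 units, the nearest ending 5 bases before the gene start. HSFA2 held 3 and 1, the nearest ending 25 bases before the start, and 92 bases of its window lie in the neighbouring gene AT2G26140. DREB2A held 2 and 1, the nearest 151 bases before the start, and HSP70 held none of these letters in this window. HSP21 held 1 match to 2 units and the other 5 genes held none. The windows of HSP101, HSP90.1 and HSP18.2 hold 26, 27 and 10 bases of a neighbouring gene. That of HSP90.1 also ends in letters that read as a start codon and further codons. The RefSeq start of HSP90.1 may thus lie within coding sequence, and its lack of a match may not describe its promoter. Over the family, 4 of 10 windows held 2 units and 3 of 10 held 3 units, beside 16.1% and 0.386% of 27443 gene windows of the same length. A match is a string of letters and not a shown binding site.

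Library totals were 1.41 to 5.75 M counts in stem-cell nuclei, 2.14 to 6.24 M in non-stem nuclei, 7.16 to 9.49 M in sperm and 7.69 to 10.19 M in vegetative nuclei. Levels are in CPM (counts of a gene for each M counts of its library), where 3 counts are 0.522 to 2.13 CPM in stem-cell libraries and 0.294 to 0.390 CPM in vegetative libraries, so a 0 in a seedling library is a weaker limit than in pollen. These floors cover counting error only. AGO9 was low where the labels say so: in sperm its mean was 743.1 CPM in the wild type, 36.9 in ago9 and 46.7 in ago59, and in stem-cell nuclei 86.6, 11.9 and 13.0. AGO5 in sperm was 41.4 CPM in the wild type, 2.30 in ago5 and 3.03 in ago59. In stem-cell nuclei AGO5 was 12.1 ± 10.8 CPM (SD, n = 8) in the libraries labelled ago5 against 15.1 ± 11.7 (SD, n = 5) in the wild type, so AGO5 does not bear out that label there. In non-stem nuclei it was at 0.107 CPM in the wild type and 0.125 CPM in ago5 and checks nothing. The groups held their marker genes: the summed meristem genes CLV3, STM, WUS and KNAT1 were 101 to 147 CPM in wild-type stem-cell libraries and 5.62 to 30.5 in wild-type non-stem libraries, where CLV3 was 0. Sperm markers (6 genes) summed to 2427 to 2535 CPM in wild-type sperm and 27.1 to 49.3 in wild-type vegetative nuclei, with GEX2, a defining gene of the list, at or near 0 in all pollen groups. Vegetative markers (8 genes) summed to 33044 to 39214 CPM in wild-type vegetative nuclei and still 7048 to 7979 in wild-type sperm. The 7 wild-type pollen columns were assigned by elimination, and all wild-type pollen values rest on that. The labels do not say whether libraries came from separate plants, so every p-value measures the spread between these libraries. In such pooled nuclei, fewer cells of a type and less RNA per cell cannot be told apart.

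The 10 genes divided by tissue. Per kilobase of exon, DREB2A had the highest wild-type mean of the family in both seedling groups, 55.9 CPM per kb in stem-cell nuclei and 38.1 in non-stem nuclei. HSP17.4, at 45.2 CPM per kb, and HSP70, at 38.0, led in sperm, and HSP18.2, at 7.41, led in vegetative nuclei. Values of the 2 leading genes of sperm overlapped between libraries. HSP21, the chloroplast small heat shock protein, and ATHSP22.0, a small heat shock protein of the endoplasmic reticulum, were close to absent: ATHSP22.0 had 3 counts and HSP21 had 7 counts in all 67 libraries together, none of them in vegetative nuclei. The low-count filter kept 6 of the 10 genes in stem-cell nuclei, 4 in non-stem nuclei, 5 in sperm and 6 in vegetative nuclei, so the genes below are those with enough counts and not the whole family.

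**Figure D1:**
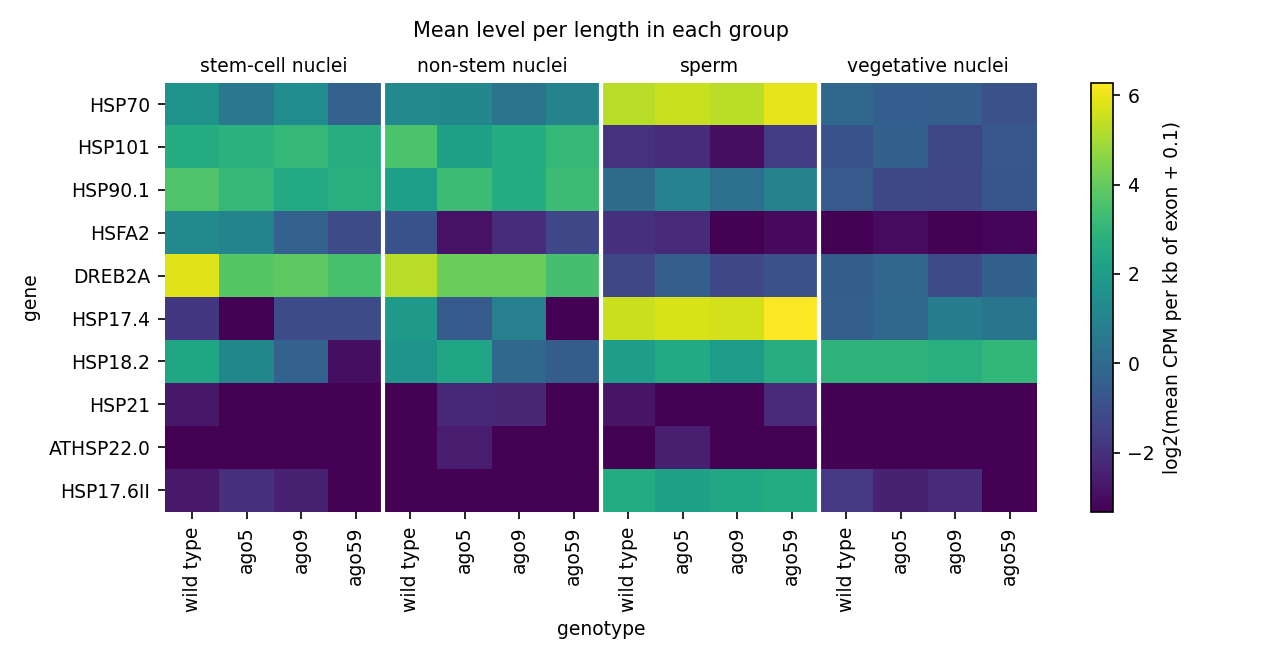
Mean level of the 10 genes in the 16 groups, as log2 of mean CPM per kb of exon plus 0.1, with genotypes as columns within each cell type. HSP70, HSP17.4 and HSP17.6II are brightest in the sperm columns, DREB2A in the seedling columns, and HSP21 and ATHSP22.0 are dark throughout.

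In the wild type, 3 heat shock protein genes stood far higher in sperm than in vegetative nuclei. HSP70, a cytosolic chaperone that heat induces, was at 77.3, 104 and 106 CPM in the 3 sperm libraries and at 1.68, 1.27, 3.09 and 2.44 CPM in the 4 vegetative libraries. The lowest sperm library lay far above the highest vegetative one. The log2 difference was 5.49 (SE 0.188, 45.0-fold, adjusted p = 6.31e-15). Each adjusted p, unless DESeq2 is named, comes from the quasi-likelihood test of edgeR, adjusted over all features by Benjamini and Hochberg. HSP17.4, a cytosolic class I small heat shock protein, was at 29.8, 33.6 and 34.9 CPM in sperm and at 0.335, 0.345, 0.773 and 0.443 CPM in vegetative nuclei. These groups did not overlap either, and the log2 difference was 6.09 (SE 0.238, 68.1-fold, adjusted p = 3.59e-14). HSP17.6II, a cytosolic class II small heat shock protein, was lower, at 3.11, 5.82 and 6.78 CPM in sperm against 0, 0.230, 0.258 and 0.222 CPM in vegetative nuclei, a log2 difference of 4.77 (SE 0.488, adjusted p = 3.62e-08). Of the 6 members tested, 3 were called higher and 2 lower. HSP17.6II did not pass the low-count filter in vegetative nuclei alone, nor HSP101 in sperm alone, so their directions were largely set by the filter. Of 10125 features tested in this contrast, 91.1% were called, 45% as higher in sperm and 46.1% as lower, so a call alone places no gene apart, and the median log2 difference over all features was -0.16.

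The level of these genes in vegetative nuclei was near the level at which sperm markers were read there. In the wild type the vegetative mean was 2.21% of the sperm mean for HSP70, 1.45% for HSP17.4 and 3.39% for HSP17.6II, beside 1.59% for the summed sperm markers. Summed vegetative markers in sperm were 21.0% of their level in vegetative nuclei. The part of such RNA in the results was not tested.

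HSP101 and HSP18.2 lay on the other side. HSP101 was at 0.598, 0.329 and 0.753 CPM in sperm and at 1.23, 1.27, 1.55 and 1.77 CPM in vegetative nuclei, with no overlap and a log2 difference of -1.38 (SE 0.459, adjusted p = 0.00881). The call did not hold under RLE size factors (-0.92, adjusted p = 0.0749), with DESeq2 (0.125), when low counts were kept (0.0556), with a replicate block (0.0732) or without wild-type sperm replicate 2 (-1.07, adjusted p = 0.0694). HSP18.2, another class I small heat shock protein, was at 4.90, 3.62 and 3.14 CPM in sperm and at 4.81, 7.60, 9.28 and 7.31 CPM in vegetative nuclei, where the highest sperm library passed the lowest vegetative one. Its log2 difference of -0.87 (SE 0.278, adjusted p = 0.00719) shrank to -0.38 with RLE size factors (adjusted p = 0.222), to -0.37 with DESeq2 (0.269) and to -0.49 without wild-type sperm replicate 3 (0.101). RLE factors moved the median of all features by 0.467, DESeq2 by 0.468. HSP90.1, the heat-inducible cytosolic HSP90, was at 2.99, 1.43 and 1.63 CPM in sperm and at 1.12, 0.691, 1.67 and 1.11 CPM in vegetative nuclei, which overlapped. It was not called (log2 0.83, adjusted p = 0.0874), but was called with RLE factors (1.32, adjusted p = 0.0119), with DESeq2 (1.34, 0.0146), without wild-type sperm replicate 2 (1.09, 0.0495) and without wild-type sperm replicate 3 (1.20, 0.0251). HSFA2 and DREB2A were too low to be tested, with 7 counts of HSFA2 in wild-type sperm and 0 in wild-type vegetative nuclei.

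Other small heat shock proteins and cochaperones of the heat response lay mostly on the sperm side. Among other small heat shock proteins, 6 of 14 were tested and all 6 were higher in sperm, with a median log2 difference of 3.60, led by HSP17.6C (15.9 against 0.400 CPM, log2 5.25), HSP17.6B (5.98 against 0.121, log2 5.52) and HSP17.4B (5.60 against 0.480, log2 3.47). HSP17.6A (log2 1.57), another of the 6, was not called with a replicate block (adjusted p = 0.0767). None of the 14 passed the low-count filter in vegetative nuclei alone, so the direction of the 6 was largely set by the filter. Of 9 tested cochaperones and regulators, 8 were higher and none was called lower, with a median of 4.50. In vegetative nuclei alone, 7 of the 12 genes on this list passed the filter. ROF2 and ROF1, immunophilins that bind HSP90, were at 106.0 against 1.98 CPM (log2 5.71) and 133.0 against 1.96 CPM (log2 6.07). HSBP, which binds heat shock factors and damps them, was at 282.4 against 11.5 CPM (log2 4.60).

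Larger chaperones were split. Of 11 other HSP70, HSP90 and HSP100 genes tested, 6 were higher in sperm and 4 lower, with a median of 1.69: HSP70-5, another cytosolic HSP70, was higher (log2 5.79), as were mitochondrial mtHSC70-1 (5.35) and HSP70-14 (1.80), while HSP90-4 (-4.49), HSP70-16 (-2.26) and chloroplast cpHSC70-2 (-2.17) were lower. Endoplasmic reticulum genes were mostly lower, 6 of 9 with a median of -1.62, of which 1, BZIP60 (-0.57), was not called with RLE factors (-0.11, adjusted p = 0.558), with DESeq2 (0.617) or without wild-type sperm replicate 1 (0.0561). Among the lower genes were the HSP70 chaperone BIP1 (-3.18), the lectin chaperone CRT1B (-4.31) and ERDJ3B (-1.62). The stress regulator BZIP28 (3.39) and ERDJ3A (2.50) were the 2 called higher. The other heat shock factors divided evenly: 3 of 7 tested were higher, HSFA1A (1.98), HSFA4A (4.27) and HSFA8 (2.65), and 3 were lower, HSFB2A (-3.71), HSFB2B (-2.73) and HSFA5 (-2.03). Of 12 rapid response genes only 2 were tested, ERF6 (5.68) and ZAT12 (5.58), both higher in sperm. In the fits of vegetative nuclei 0 of the 12 passed the low-count filter, so this direction too was largely set by the filter. Several other genes named here were low in 1 cell type. Vegetative means were 0.206 CPM for HSFA4A, 0.611 for HSFA8, 0.414 for HSP70-5 and 0.345 for mtHSC70-1. Sperm means were 0.365 CPM for HSFB2A and 0.241 for CRT1B. The filter largely set their directions as well.

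**Figure D2:**
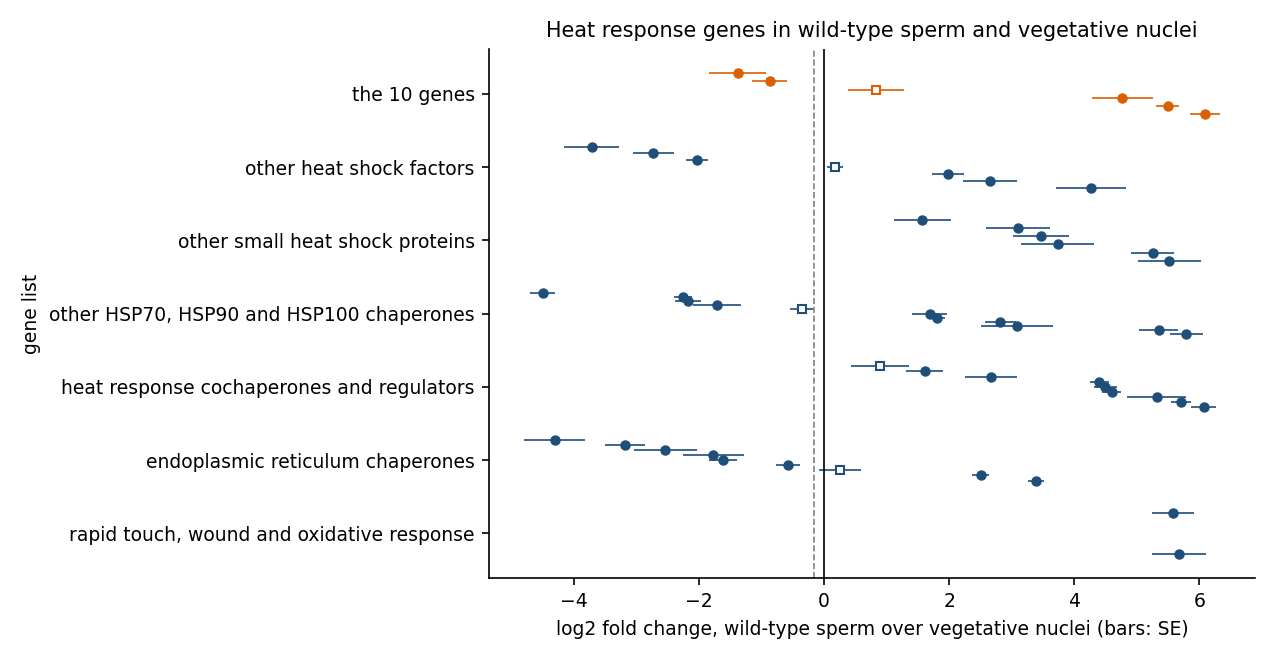
Log2 fold change of each tested gene, wild-type sperm over wild-type vegetative nuclei, by gene list, with standard errors as bars. Filled circles were called and open squares were not, and the dashed line is the median of all features at -0.16. All 6 tested small heat shock proteins outside the family lie on the sperm side, and 6 of 9 endoplasmic reticulum genes lie on the vegetative side. None of those small heat shock proteins passed the low-count filter in vegetative nuclei alone.

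Sperm also differed in which cytosolic HSP70 gene was read most. In wild-type sperm HSP70 was at 38.0 ± 6.31 CPM per kb (SD, n = 3), HSP70-5 at 9.16 ± 1.84 and HSC70-1, the constitutive family member, at 3.44 ± 0.600. In wild-type stem-cell nuclei HSC70-1 stood above HSP70, with HSC70-1 at 495.8 ± 109 CPM per kb (SD, n = 5) and HSP70 at 2.88 ± 2.77, and in non-stem nuclei the means were 514.4 and 2.17. In wild-type vegetative nuclei HSC70-1 at 1.06 ± 0.367 and HSP70 at 0.841 ± 0.322 (SD, n = 4) did not differ beyond their spread. Over all genotypes, HSP70 took 72.6% to 81.9% of the summed level of 5 cytosolic HSP70 genes in sperm, 7.32% to 46.2% in vegetative nuclei and at most 1.49% in stem-cell nuclei. HSP70 exceeded HSC70-1 in 12 of 12 sperm libraries, in 3 of 15 vegetative libraries and in none of the 27 stem-cell and 13 non-stem libraries.

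**Figure D3:**
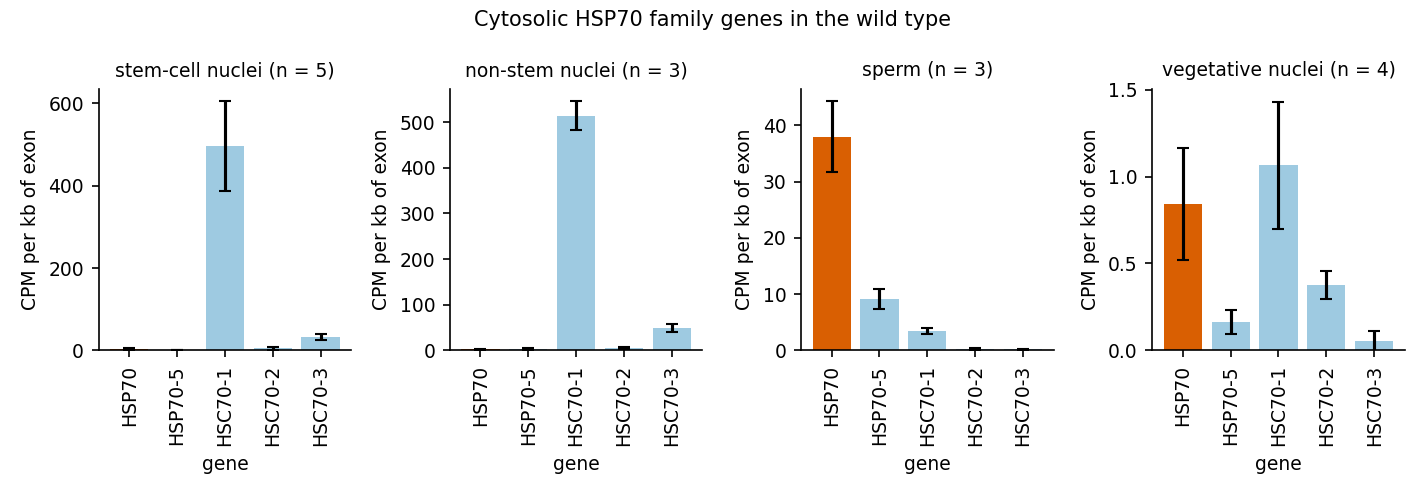
Level of 5 cytosolic HSP70 genes in the wild type, in CPM per kb of exon with SD as bars, one panel per cell type with its own axis. HSP70 is the tallest bar in sperm, at 38.0, and HSC70-1 in both seedling groups, at 495.8 and 514.4.

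HSP70 lies at chr3:3991117-3993886 on the minus strand, with 2520 exon bases and no overlapping gene. HSP17.4 (chr3:16984118-16984867, minus strand) shares exon bases with genes on the opposite strand: 453 of its 724 exon bases (62.6%) with AT3G07365, for which no value was used here, and 60 (8.29%) with AT3G46220. The Smart-seq2 protocol does not mark strand, so reads from the shared stretch cannot be told apart. AT3G46220 itself was at 25.5 ± 1.98 CPM (SD, n = 3) in wild-type sperm and at 0.775 in wild-type vegetative nuclei, and its part in the HSP17.4 value was not tested. HSP101 (chr1:27936508-27940369, minus strand) shares 101 bases (3%) with AT1G74300 and DREB2A (chr5:1602205-1604112, plus strand) 73 bases (4.42%) with AT5G05420, both on the opposite strand, and the other 7 genes overlap none, among them HSP18.2 (chr5:24062323-24063300, plus strand). Coordinates are those of RefSeq TAIR10.1. Of exon stretches of 50 bases, only 0.196% of those of HSP101 and none of the other 9 genes recur elsewhere in the genome, on either strand.

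In ago59 pollen, HSP70 was the gene whose values chose the family, and these values are a description. In sperm it was at 169, 152 and 135 CPM in ago59 against 77.3, 104 and 106 CPM in the wild type, with no overlap and a log2 difference of 0.64. In vegetative nuclei it was at 1.25, 1.18, 1.31 and 0.520 CPM in ago59 against 1.68, 1.27, 3.09 and 2.44 CPM, with overlap and a log2 difference of -1.24. The vegetative values rest on 4 to 12 counts per ago59 library and 11 to 24 per wild-type library. Sperm markers there summed to 33.7 to 40.6 CPM in ago59 and to 27.1 to 49.3 in the wild type. The median log2 difference of the 3 tested was -0.75, beside 0.01 over all features. Of these 3, 1 was called lower, HAP2, at 1.51 against 3.17 CPM. The part of sperm markers in the HSP70 values was not tested. The difference between both effects was 1.91 on the log2 scale and ranged from 1.68 to 2.09 when any 1 library was left out. That range comes from the same libraries that chose the gene and tests nothing. In that comparison 0.0792% of 11360 features were called, in ago59 sperm 0.145% of 9623 and in ago59 vegetative nuclei 1.69% of 8973.

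The other tested genes were given by the same contrasts. HSP17.4 in sperm was at 58.1, 65.5 and 45.2 CPM in ago59 and at 29.8, 33.6 and 34.9 in the wild type, without overlap, a log2 difference of 0.74. HSP90.1 in sperm was at 4.38, 4.23 and 3.27 CPM in ago59 and at 2.99, 1.43 and 1.63 in the wild type, also without overlap (log2 0.89, or 1.45 without wild-type sperm replicate 1). HSP18.2 (log2 0.55) and HSP17.6II (0.02) overlapped with the wild type. How many of all features lie without overlap was not counted, here or in any other comparison. With 3 libraries against 3 such a separation is a weak description and no result about the family. The sperm-minus-vegetative differences were 1.32 for HSP90.1, 0.78 for HSP18.2, 0.60 for DREB2A, 0.58 for HSP101 and 0.12 for HSP17.4. That of DREB2A was -0.39 without ago59 sperm replicate 2. That of HSP90.1 was 1.83 without wild-type sperm replicate 1 and 1.79 without ago59 vegetative replicate 2, and that of HSP17.4 was 0.50 without the latter library. HSP17.6II was at 0 in all 4 ago59 vegetative libraries and at 0 to 2 counts in the wild type, too few for a difference. Summed sperm markers in ago59 sperm were 2201 to 2581 CPM and vegetative markers 6558 to 7330 CPM. The first range encloses the wild-type values and the second lies partly below them. Their part in the differences was not tested.

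The single mutants gave no member call in pollen. Their comparisons use the same wild-type libraries as the ago59 contrasts that chose the family, so they are not independent of that choice. HSP70 in sperm was at 121, 105 and 108 CPM in ago5 (log2 0.16, SE 0.119, adjusted p = 0.993) and at 89.6, 116 and 91.1 CPM in ago9 (log2 0.24, SE 0.119, adjusted p = 0.296), both overlapping the wild type. HSP17.4 in sperm was at 48.2, 26.7 and 37.4 CPM in ago5 (log2 0.11, adjusted p = 0.993) and at 32.0, 40.4 and 34.9 CPM in ago9 (log2 0.32, adjusted p = 0.307). All features together gave 0.0312% called in ago5 sperm, 3.37% in ago9 sperm, 0.0111% in ago5 vegetative nuclei and 0.1% in ago9 vegetative nuclei, and DESeq2 called 0 members in each of them too. At an unadjusted p under 0.05, the only member was HSP17.4 in ago9 vegetative nuclei, at 0.580, 1.48, 1.5 and 0.989 CPM against 0.335, 0.345, 0.773 and 0.443 (log2 1.19, adjusted p = 0.771). HSP101 in ago9 sperm, too low for the test, had 2 counts against 14 in the wild type, a ratio of 6.91 (exact 95% interval 1.59 to 62.6, for counting error only). The HSP70 difference between sperm and vegetative effects was 0.83 in ago5 (SE 0.462, adjusted p = 0.754) and 0.65 in ago9 (SE 0.402, adjusted p = 0.548). No feature was called in either, 0% of 11145 and 0% of 11015, with 741 and 1360 features at an unadjusted p under 0.05, 1 member each (HSP90.1 in ago5 and HSP17.4 in ago9), and 0 members called by DESeq2.

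**Figure D4:**
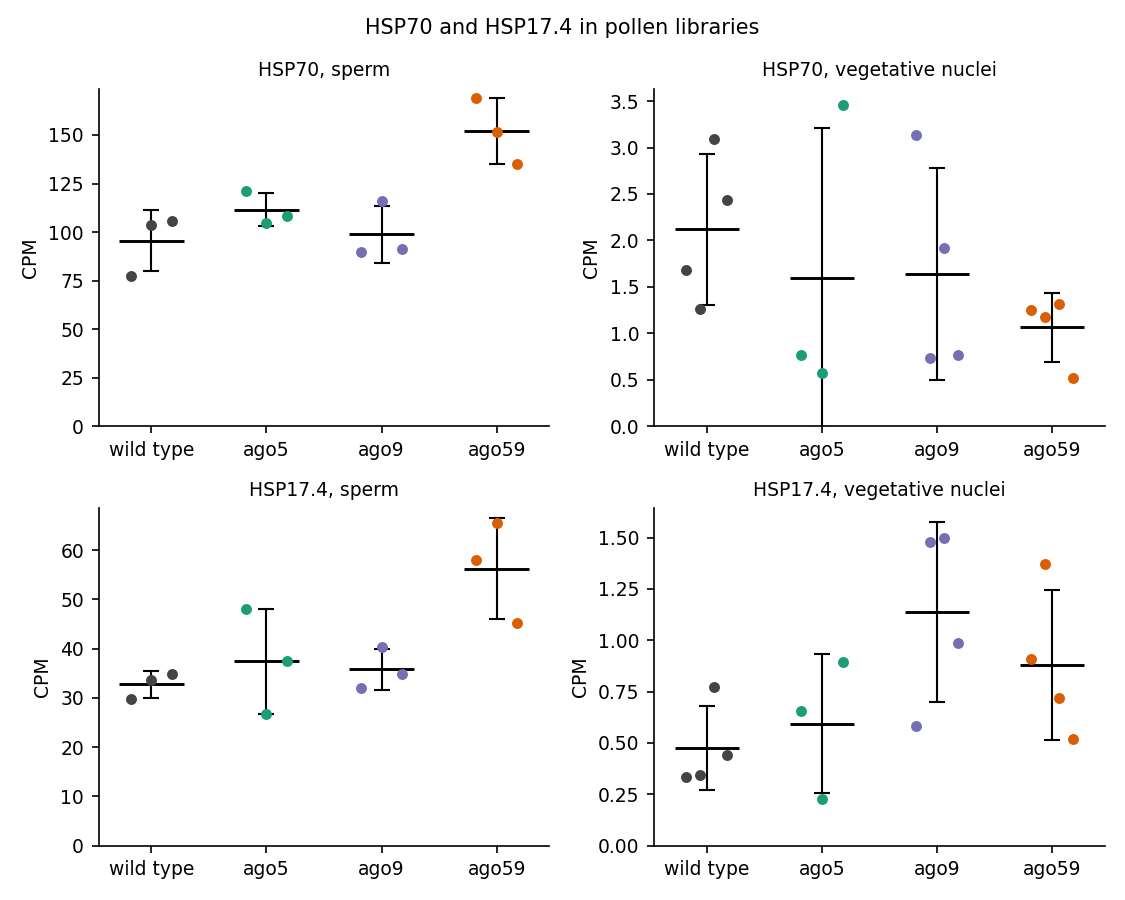
CPM of HSP70 and HSP17.4 in each sperm and vegetative library, with the mean and SD as bars, cut at 0. In sperm the 3 ago59 libraries lie above all wild-type libraries for both genes, 135 to 169 against 77.3 to 106 for HSP70, and no vegetative library is above 3.46 CPM for HSP70 or 1.5 CPM for HSP17.4.

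Other heat response genes were called in ago9 sperm, where 3.37% of 9623 features were called in either direction. How many of all features were called lower there was not counted. Of 9 tested cochaperones and regulators, 4 were called lower and none higher. They were HSBP (log2 -0.71, adjusted p = 0.0206), ROF1 (-0.52, 0.0345), ROF2 (-0.42, 0.0493) and the DREB2A relative DREB2B (-0.55, 0.0497). Vegetative markers in these libraries summed to 10300 to 11836 CPM, above all wild-type sperm libraries at 7048 to 7979, and sperm markers to 1994 to 2142 CPM, below all of them at 2427 to 2535. The part of either in the 4 calls was not tested. The adjusted p of all 4 rose above 0.05 when any of ago9 sperm replicate 1, ago9 sperm replicate 3, wild-type sperm replicate 1 and wild-type sperm replicate 3 was left out, to at most 0.199, and ROF1, ROF2 and DREB2B lost the call without some of the other libraries too. ROF2 also lost it when low-count features were kept (adjusted p = 0.164) and with only the groups compared (0.0566).

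In seedlings the gene that moved was DREB2A. In wild-type stem-cell nuclei it was at 109, 92.4, 140, 56.9 and 63.1 CPM. The 8 libraries labelled ago5 ranged from 8.14 to 43.6 CPM with a median of 21.3, the 7 ago9 libraries from 11.4 to 34.0 with a median of 25.8, and the 7 ago59 libraries from 10.2 to 35.8 with a median of 16.6. No library of the 3 mutant groups reached the lowest wild-type library. DREB2A fell by 2.17 on the log2 scale in the libraries labelled ago5 (SE 0.369, adjusted p = 0.000438), by 2.05 in ago9 (SE 0.385, adjusted p = 0.00295) and by 2.48 in ago59 (SE 0.389, adjusted p = 5.11e-05). The 3 comparisons share the 5 wild-type libraries. The calls remained when any 1 library was left out, with adjusted p of at most 0.00428, 0.0225 and 0.000527, and with a replicate block (0.0112, 0.0423 and 0.000941). In these contrasts 1.33%, 0.671% and 2.94% of 18633 features were called, and 0.88%, 0.435% and 1.96% were called lower, where 1, 1 and 2 of the 6 tested genes were. AT5G05420, which overlaps DREB2A on the opposite strand, was at 3.18 CPM in the wild type and at 0.371, 1.84 and 0.770 CPM in the mutants. The DREB2A means were 92.3, 22.0, 24.4 and 18.4 CPM, and the part of AT5G05420 in them was not tested.

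The summed level of markers of other shoot cells was lower in the mutants, but mostly through 1 gene. The median log2 difference of the 6 markers was 0.285 in the libraries labelled ago5, -0.095 in ago9 and -0.441 in ago59. The 6 genes summed to 21251 to 24162 CPM in wild-type stem-cell libraries, to 9651 to 12291 in the libraries labelled ago5, to 10357 to 12931 in ago9 and to 8598 to 9758 in ago59. In each mutant 1 of the 6 was called, RBCS1A, a gene of the small Rubisco subunit that makes up most of the sum, at log2 -1.25, -1.15 and -1.5. Meristem markers were 87.7 to 361 CPM over the mutant stem-cell libraries, and 0 of the 4 were called in each mutant. Whether the cells sampled or the growth of the wild-type plants had a part in the DREB2A values was not tested.

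HSP18.2 was called in ago59 stem-cell nuclei. It was at 4.01, 0.938, 8.26, 7.12 and 4.11 CPM in the wild type, and at 0 in 6 of the 7 ago59 libraries and 0.200 in the seventh. Every wild-type library was above every ago59 library, with 75 counts in all against 1, a ratio of 130 (exact 95% interval 22.6 to 5206, for counting error only), and the adjusted p was 0.0101. That p ranged from 0.00765 to 0.0253 when any 1 library was left out, but with only the 2 groups in the fit the gene was no longer among those tested. HSP18.2 in the libraries labelled ago5 ranged from 0 to 8.96 CPM with 4 of 8 at 0, and in ago9 from 0 to 1.77 CPM with 3 of 7 at 0. Neither was called (log2 -1.35, adjusted p = 0.772, and -2.84, adjusted p = 0.508).

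The other 4 tested genes did not pass in stem-cell nuclei. HSP101 stayed near the wild type, with log2 differences of 0.01, 0.25 and -0.15 (SE 0.497, 0.514 and 0.509) in ago5, ago9 and ago59. HSP90.1 was at 30.5, 39.9, 23.0, 16.1 and 19.2 CPM in the wild type and had means of 17.7, 12.0 and 13.3 CPM in the mutants (log2 -0.63, -1.25 and -1.09, adjusted p = 0.750, 0.470 and 0.389). HSP70 averaged 7.26 CPM over the wild-type libraries (SD 6.98), of which 2 of 5 were at 0, and its differences of -1.30, -0.47 and -2.20 had SEs of 1.23, 1.27 and 1.29. HSFA2 averaged 4.31 CPM there (SD 6.35), with 2 of 5 libraries at 0, and had differences of -0.41, -1.74 and -2.64 and SEs of 1.49, 1.57 and 1.58. For HSP70 and HSFA2 a difference of the size seen for DREB2A is within 2 SE of 0.

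**Figure D5:**
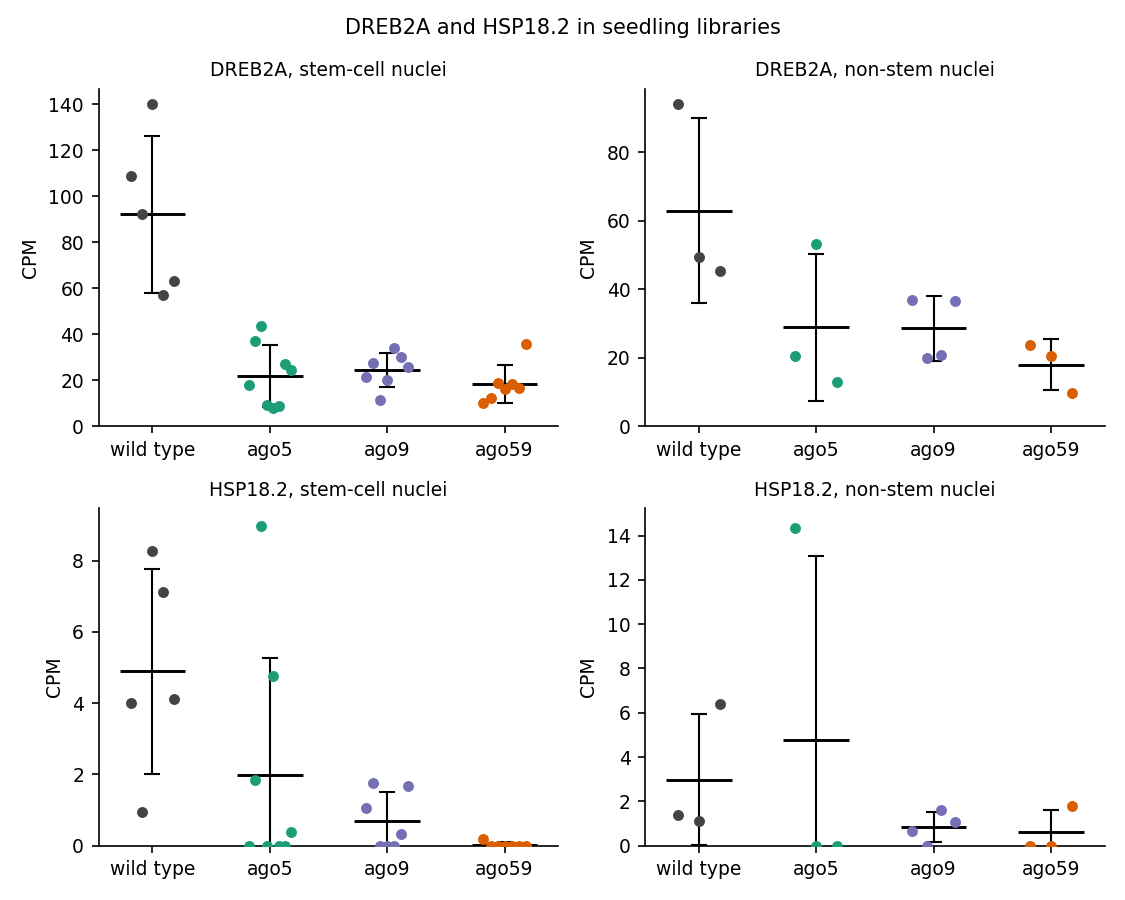
CPM of DREB2A and HSP18.2 in each stem-cell and non-stem library, with the mean and SD as bars, cut at 0. DREB2A in the 5 wild-type stem-cell libraries (56.9 to 140) lies above all mutant libraries (8.14 to 43.6), and HSP18.2 is at 0 in 6 of 7 ago59 stem-cell libraries.

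In the lists around the family, the heat shock factor gene HSFC1 was called lower in the stem-cell libraries labelled ago5, from 577.2 to 286.6 CPM (log2 -1.15, adjusted p = 6.11e-05), and in ago59, at 179.6 CPM (log2 -1.83, adjusted p = 6.98e-09). It was the 1 factor called of 14 tested in each of these, and none was called in ago9. Of 12 rapid response genes, early genes of touch, wounding and oxidative stress, 5 were called lower in ago59 and none higher: the zinc finger gene SZF1 (-1.51), the cold factor CBF2 (-1.19), RRTF1 (-2.17), ZAT10 (-1.34) and WRKY40 (-1.12). The last 2 are named beyond the 3 with the smallest adjusted p. RRTF1 and WRKY40 were not called with a replicate block (adjusted p = 0.0642 and 0.123), and WRKY40 also not without any of 7 single libraries (0.0599 to 0.174). None of the 12 was called in the stem-cell libraries labelled ago5 or in ago9. Among 19 other chaperones, chloroplast cpHSC70-2 was called lower in ago5-labelled (-0.70, adjusted p = 0.0141, or 0.116 with low-count features kept, 0.0655 with only the groups compared and 0.0545 without wild-type stem-cell replicate 4) and ago59 libraries (-0.85). HSP90-2 was called lower in ago59 (-0.52, adjusted p = 0.0481), a call lost with a replicate block (0.138), with low-count features kept (0.0831) and without any 1 of 15 libraries (up to 0.185). HSP15.4, 1 of 6 small heat shock proteins tested, was called higher in ago59 (1.31, adjusted p = 0.0284, or 0.0585 with low-count features kept and up to 0.0935 without any 1 of 5 libraries). No cochaperone and no endoplasmic reticulum gene was called in the 3 mutants.

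In non-stem nuclei the DREB2A values pointed the same way without passing the test. The wild type was at 94.1, 49.4 and 45.3 CPM, ago5 at 20.5, 53.2 and 13.0, ago9 at 36.8, 20.0, 20.9 and 36.6 and ago59 at 23.9, 20.5 and 9.65. All ago9 and ago59 libraries lay below all wild-type libraries and 1 ago5 library lay among them. The log2 differences were -1.25 (SE 0.524, adjusted p = 0.475), -1.26 (SE 0.481, adjusted p = 0.463) and -1.92 (SE 0.538, adjusted p = 0.0884). The ago59 difference was called with DESeq2 (adjusted p = 0.0267) and when low-count features were kept (0.0253). No member was called by edgeR, beside 0.382%, 0.245% and 1.2% of 18334 features. At an unadjusted p under 0.05 there were 2 members in ago5 and 2 in ago9, DREB2A and HSP101, and 1 in ago59, DREB2A. DESeq2 called 0 members in ago5 and in ago9 and 1 in ago59. The fit here had 3 or 4 libraries a group. On simulated counts it recovered 11% of ago59 changes of 2 log2 units, so a missing call says little here.

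HSP101 showed its largest wild-type level in this group, 46.3, 38.8 and 32.2 CPM, above all ago5 libraries (26.6, 6.79 and 11.2 CPM) and all ago9 libraries (24.2, 13.9, 20.9 and 21.8 CPM). Neither passed (log2 -1.53, adjusted p = 0.360, and -1.09, adjusted p = 0.63), and the ago59 libraries at 17.5, 43.6 and 23.3 CPM overlapped with the wild type. HSFC1 was again called lower in ago5 (-0.91) and ago59 (-1.62), and the ago5 call was lost without any 1 of its own or the wild-type libraries. CBF2 (-1.62), SZF1 (-1.36) and the chaperone HSC70-3 (-1.82) were called lower in ago59, HSC70-3 not without ago59 non-stem replicate 1 (adjusted p = 0.0782) or wild-type non-stem replicate 2 (0.0558). Shoot cell markers summed to 26484 to 29031 CPM in the wild type and to 8924 to 14024 CPM over the mutants. Of the 6 markers 1 was called lower in each mutant, and their median log2 difference was -0.475 in ago5, 0.165 in ago9 and -0.200 in ago59. The part of these markers was not tested.

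Whether the DREB2A difference depended on the cell group was tested directly, in comparisons added after seeing the data. The stem-cell effect minus the non-stem effect was -0.94 in ago5 (SE 0.661, adjusted p = 1.00), -0.81 in ago9 (SE 0.642, adjusted p = 1.00) and -0.58 in ago59 (SE 0.672, adjusted p = 1.00). None of these 3 tests called any feature, 0% of 20753, with 999, 794 and 938 features at an unadjusted p under 0.05, of the members 0, 0 and 1 (HSP90.1), and DESeq2 called 0 members as well. A larger fall in stem-cell nuclei was not shown.

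Between the seedling groups themselves, no member was called. In the wild type HSP90.1 had the smallest p, at a mean of 25.7 ± 9.57 CPM (SD, n = 5) in stem-cell and 8.86 ± 5.33 (SD, n = 3) in non-stem nuclei, where the groups did not overlap (log2 1.59, adjusted p = 0.391, with 0.181% of features called). It was the 1 member at an unadjusted p under 0.05, and DESeq2 called 0. DREB2A had a log2 difference of 0.60 (adjusted p = 0.741) and HSP101 of -0.86 (adjusted p = 0.837). Averaged over the 4 genotypes, where 6.93% of features were called, HSFA2 had a difference of 2.38 (SE 1.05, adjusted p = 0.177; the 1 member at an unadjusted p under 0.05, with 0 called by DESeq2), DREB2A of 0.01 and HSP90.1 of 0.20. In that average the small heat shock protein gene HSP14.7 (log2 4.78, 5.92 against 0.344 CPM), the cochaperone gene BAG6 (1.74) and HSP90-3 (0.44) were called higher in stem-cell nuclei, and HSFC1 (-0.47) and TCH3 (-0.45) lower, the last not with a replicate block (adjusted p = 0.464) and not with RLE factors (0.0623), while all 4 meristem markers were called higher.

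Among features kept by the low-count filter in both cell types of a tissue, those that followed HSP70 most closely were not heat response genes of the lists. In pollen the other small heat shock proteins, the rapid response genes and HSP17.6II did not pass in vegetative nuclei. They could therefore not be ranked there. Over the 27 pollen libraries, after the mean of each cell type was taken off log2(CPM + 1), Pearson's r with HSP70 was highest for ADF6 (0.715), NF-YB10 (0.702), AT1G15810 (0.695), LNO1 (0.686) and ASHH4 (0.677) among 6677 features. Of the family, HSP18.2 reached 0.348, HSP17.4 0.317 and HSP90.1 0.292. Over the 40 seedling libraries the highest among 17730 features were AT4G01600 (0.602), URH2 (0.561), GPCR (0.551), AT1G32120 (0.533) and the transposable element AT2TE03635 (0.53), while HSP101 reached 0.321 and DREB2A 0.094. Libraries share their genotype groups and depth in these values, which are a description of likeness over libraries.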

How the data were processed

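The authors deposited expected counts, estimated per feature and not always whole (7.58% of values were not), for 60886 features in 67 libraries. TAIR10 and DESeq2 are named in the submitters' processing notes; the counter, strand setting and use of molecular identifiers are not given in the sources used here. Groups came from sample titles. Columns were matched by name for 60 libraries, and the 7 wild-type pollen columns, numbered 21, by elimination. Counts were rounded and tested with edgeR 4.0.16 in R 4.3.3: TMM factors, filterByExpr (minimum count 10, minimum total count 15), quasi-likelihood test, Benjamini-Hochberg adjustment over all features, calls at an adjusted p under 0.05. Mutant comparisons were fitted on all 4 genotypes of a cell type, the wild-type comparisons on the groups compared. Log2 differences use TMM factors, and printed CPM uses library totals. Alternatives were RLE factors, no filter, DESeq2 1.42.0, robust dispersion, no organelle or ribosomal RNA genes, a replicate block, other groups fitted, and each library left out. The members and lists were chosen with earlier results of these data known. Named list genes were up to 3 per direction with the smallest adjusted p among those called, and others in counts of at most 5 were named after their values were seen. Coordinates, exon lengths and sequences are from RefSeq TAIR10.1. No replicate pair agreed within counting noise (chi-square per degree of freedom at least 4.13). The fits were tested on simulated counts, with changes of 1 and of 2 log2 units put into ago59 libraries, 100 features each. Those recovered were 13% and 51% in stem-cell nuclei and 3% and 11% in non-stem nuclei. In sperm they were 54% and 81%, and in vegetative nuclei 67% and 93%. A missing call in seedling nuclei is therefore weak evidence of no change. Replicate numbers did not pair samples: in no pair of groups did every same-numbered pair correlate above 0.1.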

Additional observations from a re-analysis of the deposited data

Results flagged for a closer look

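In 6 of 46 gene and group combinations with 4 to 10 libraries, the highest library stood far from the others by a rule on the gap to the next library. The rule flags about 1 of 20 groups when values are normally distributed. Many of these values are low or at 0, so the 6 of 46 cannot be set against that rate. HSP70 reached 24.1 CPM in ago9 stem-cell replicate 6, where the next library was at 4.70 CPM. HSFA2 reached 19.8 CPM in the stem-cell library labelled ago5 replicate 5 (next 9.25), 6.34 in ago9 replicate 1 (next 1.36) and 3.60 in ago59 replicate 3 (next 0.709). DREB2A reached 35.8 CPM in ago59 stem-cell replicate 8 (next 18.9), still below every wild-type library. HSP18.2 was at 0.200 CPM in ago59 stem-cell replicate 1, from 1 count, where the other 6 libraries were at 0.

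For HSP70 the ago59 effect in sperm minus that in vegetative nuclei was 1.91 on the log2 scale, the value the family was chosen by. In 3 other combinations of a gene and a mutant, all libraries of one cell type lay on one side of the wild-type mean and all of the other type on the other side, but the test of the difference did not call any of them, so a difference was not shown. How many features in all meet the same description was not counted. The 3 were HSP101 in ago9, stem-cell minus non-stem effect 1.32, HSP90.1 in ago59, stem-cell minus non-stem effect -2.17, and HSP90.1 in ago5, sperm minus vegetative effect 1.79 (adjusted p = 1.00, 0.998 and 0.732).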

How the results depend on the processing

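No named value changed direction among those called. The count of members called in ago59 stem-cell nuclei was 2, and 1 with only the groups compared in the fit. In ago59 non-stem nuclei it was 0, and 1 without the low-count filter and with DESeq2. No such count is given for the ago59 contrasts in pollen, by whose values the family was chosen. With the replicate block, the count in wild-type sperm against vegetative nuclei was 4 in place of 5, the HSP70 sperm-minus-vegetative difference was 1.93, and no other count of members changed. Over all features the calls moved more. Settings other than leaving out a library gave 160 to 515 calls in the stem-cell libraries labelled ago5 (248 as reported), 87 to 316 in ago9 (125) and 402 to 851 in ago59 (547). They gave 46 to 268 in ago5 non-stem nuclei (70), 41 to 237 in ago9 (45) and 169 to 549 in ago59 (220). In sperm they gave 2 to 64 in ago5 (3), 313 to 616 in ago9 (324) and 13 to 95 in ago59 (14), and in vegetative nuclei 1 to 154 (1), 7 to 84 (9) and 40 to 492 (152). The wild-type stem against non-stem count was 27 to 218 (31), its average over genotypes 593 to 1912 (1439), and the ago59 sperm-minus-vegetative count 0 to 79 (9). Counts of 0 reached 47 and 171 for ago5 and ago9 in pollen, and 37, 33 and 31 for ago5, ago9 and ago59 in seedlings. Leaving out 1 library gave 14 to 457 calls in ago9 sperm and 2 to 273 in ago59 vegetative nuclei. Of single-gene values, settings other than leaving out a library left 1157 as they were, called or not, took the call from 21, gave it to 4 and moved 1 value that has no test by more than the spread between libraries. With CPM scaled by TMM factors, 120 group means of members stayed within the SD between libraries and 4 moved beyond it. These were HSP70 (98.9 to 121.6), HSP17.4 (35.8 to 44.1) and HSP18.2 (3.74 to 4.58) in ago9 sperm, and HSP17.4 in wild-type sperm (32.7 to 35.8). Depth limits the low seedling values, since HSP70 in wild-type stem-cell nuclei had 0 to 43 counts a library, where the spread between libraries also exceeded counting error.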
